A study of Mus musculus with 2 samples.

Results

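Natural killer (NK) cells that carried transcripts of the late maturation genes Cx3cr1, S1pr5 and Zeb2 made up 843 of the 6622 quality-filtered cells sorted from tumors. A barcode was kept if 500 or more genes were detected in it and mitochondrial genes held no more than 10% of its unique molecular identifiers (UMIs), each of which stands for 1 captured transcript. A kept cell was chosen as terminally mature, here called a mature cell and in the plots a member, when at least 2 of the 3 genes had at least 1 UMI, Cd3d and Cd3e together had fewer than 2 UMIs, and Tmem176a and Tmem176b had 0. The measured values of these 7 genes thus selected the cells, and their levels in the mature cells are given as a description only. Of 3067 cells with Hif1a knocked out in NK cells (KO), 305 were mature cells, as were 538 of 3555 from wild-type mice (WT). The kept cells include 250 KO and 377 WT cells that failed the Cd3 or Tmem176 condition. The other kept cells are thus not all taken to be NK cells.

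Both libraries came from tumors of RMA-S, a mouse T-cell lymphoma whose cells display little MHC class I, collected 2 weeks after injection under the skin, and from sorted NK1.1-positive, CD3ε-negative cells profiled by 10x Chromium 3′ sequencing. The labels give neither the driver of the Hif1a deletion nor its exons, the age of the mice, nor how many animals or tumors were pooled. Since each genotype was 1 library, no difference has a replicate check, no p-value was computed, and all comparisons describe these 2 libraries. Intervals in parentheses are exact at the 95% level. They cover counting error only, and understate the error of genes whose UMIs sit in a handful of cells.

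NK cells of the mouse mature from CD27-high, CD11b-low cells to CD27-low, CD11b-high cells, with surface KLRG1 marking the last step. T-bet (encoded by Tbx21) and the zinc-finger repressor ZEB2 are needed for that step in mice, and S1P5 (S1pr5) lets mature NK cells leave lymph nodes and bone marrow. The fractalkine receptor CX3CR1 marks circulating NK cells of the latest stage. Such cells are known for high perforin and granzyme content and low proliferation.

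Depth differed between libraries. Mature cells had a median of 3914 UMIs in the KO library and 4600 in the WT library, and the other kept cells had 3787 in the KO library and 4422 in the WT library. Summed UMIs of the mature cells came to 1303628 (KO) and 2853892 (WT). The tables shared 19 barcodes, of which 2 in each library belonged to mature cells. No doublet caller was run. Ncr1, encoding the NK receptor NKp46, was detected at 2500 UMIs in 80.1% of KO and 74.5% of WT mature cells, against 47.4% of KO and 48.7% of WT cells failing the Cd3 or Tmem176 condition. Among all other kept cells it was detected in 55.8% of KO and 55.0% of WT cells at that depth. The background share of free RNA was not measured. Cd4, Cd8a and Cd8b1, the macrophage and neutrophil genes Csf1r, C1qa, Adgre1, Fcgr1 and Csf3r, and the B-cell genes Ms4a1 and Pax5 had 0 UMIs in the mature cells of both libraries. The 9 T-cell markers together were found in 37.0% of KO and 34.9% of WT mature cells, mostly as 1 gene, since 3.93% of KO and 5.76% of WT mature cells carried at least 2. They were found in 47.6% of the other KO and 48.3% of the other WT cells, whose Cd3 UMIs the rule did not limit. The 15 myeloid markers summed to 21.5 CPM in KO and 17.5 CPM in WT mature cells, CPM being UMIs per 1000000 of the summed UMIs. Erythroid markers summed to 344 CPM in KO and 187 CPM in WT mature cells and were found in 74.8% and 48.0% of them. In the other kept cells they were found in 66.8% of KO and 46.7% of WT cells. The part of erythroid transcripts in any difference between libraries was not tested.

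The chosen genes had unequal weight in the selection. S1pr5 with Zeb2 qualified 220 of the 305 KO mature cells and 367 of the 538 WT mature cells, and all 3 genes were found together in 33 KO and 71 WT cells. Cx3cr1 with Zeb2 qualified 39 KO and 75 WT cells, and Cx3cr1 with S1pr5 13 and 25. Cx3cr1 (chromosome 9, 119901616 to 120069879, minus strand, GRCm38) stood at 93.6 CPM in KO and 89.0 CPM in WT mature cells, S1pr5 (chromosome 9, 21242912 to 21248443, minus strand) at 270.0 CPM in KO and 220.1 CPM in WT mature cells, and Zeb2 (chromosome 2, 44983632 to 45117395, minus strand) at 496 CPM in KO and 401 CPM in WT mature cells. Another 10 KO and 31 WT cells had at least 2 of the 3 genes and failed the Cd3 or Tmem176 condition. With every cell thinned to 2500 UMIs, S1pr5 was detected in 57.8% of KO mature cells and 4.77% of the other KO cells, and in 50.7% of WT mature cells and 5.11% of the other WT cells. The rule itself sets these shares, so they give no measure of free RNA.

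Mature cells were a smaller share of the KO than of the WT library, 9.94% (8.91% to 11.1%) against 15.1% (14.0% to 16.4%). The rule asks for UMIs of sparse genes, and the WT cells were deeper. After thinning to 2500 UMIs before the rule was applied, the share was 6.08% (5.20% to 7.06%) of 2649 KO cells. It was 7.68% (6.82% to 8.62%) of 3463 WT cells, so the KO share was still the smaller. These intervals overlapped, but overlap of separate intervals does not compare the shares. Thinning left out 418 KO and 92 WT cells as too shallow. How far depth accounts for the smaller KO share was not tested.

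Of 38 genes outside the rule that were followed over the number of selecting genes detected, 12 climbed and 14 descended at every step in both libraries, and 12 did neither. Most of the 38 were followed because they were among the highest or lowest in mature cells. Among cells passing the Cd3 and Tmem176 conditions, Klrg1 had 77.9, 131, 268 and 383 CPM in KO cells with 0, 1, 2 and 3 of the selecting genes, and 144, 198, 289 and 464 CPM in WT cells. The cytolytic pore gene Prf1 had 174, 201, 369 and 489 CPM in KO cells and 222, 295, 450.1 and 646 CPM in WT cells over the same 4 classes. Levels of both genes went up at every step in both libraries, including from 1 to 2 detected genes, the step at which cells enter the mature set. Fgl2, encoding a fibrinogen-like immunomodulatory protein, had 96.3, 130.4, 229 and 383 CPM in KO and 101, 125, 189 and 303 CPM in WT cells, and Itgam, encoding CD11b, had 92.3, 132, 235 and 298 CPM in KO and 81.4, 114, 179 and 272 CPM in WT cells. Ccl9, a chemokine gene, was among those that did neither, with 56.0, 97.7, 212 and 142 CPM in KO and 39.1, 51.6, 92.1 and 274 CPM in WT cells, as were Insl6, Kcnj8 and Serpinb9b.

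Several early-stage genes ran the other way. Emb, encoding the adhesion protein embigin, stood at 439, 293, 147 and 49.6 CPM in KO and 311, 216, 98.3 and 38.8 CPM in WT cells with 0 to 3 selecting genes. Cd27 stood at 160.4, 126, 80.0 and 28.3 CPM in KO and 129, 107, 52.4 and 21.8 CPM in WT cells. A Cd27 UMI was found in 21.3% of KO and 17.7% of WT mature cells, and an Itgam UMI in 52.8% of KO and 58.4% of WT mature cells. Not every early-stage gene descended. Thy1 stood at 147, 149, 145 and 35.4 CPM in KO and 225, 215, 197 and 248 CPM in WT cells, and Xcl1 at 707, 855, 526 and 425 CPM in KO and 601, 548, 324 and 199 CPM in WT cells. The 2 extreme classes were unequal in size, with 1447 KO and 1271 WT cells at 0 genes, and 33 KO and 71 WT cells at 3.

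**Figure D1:**
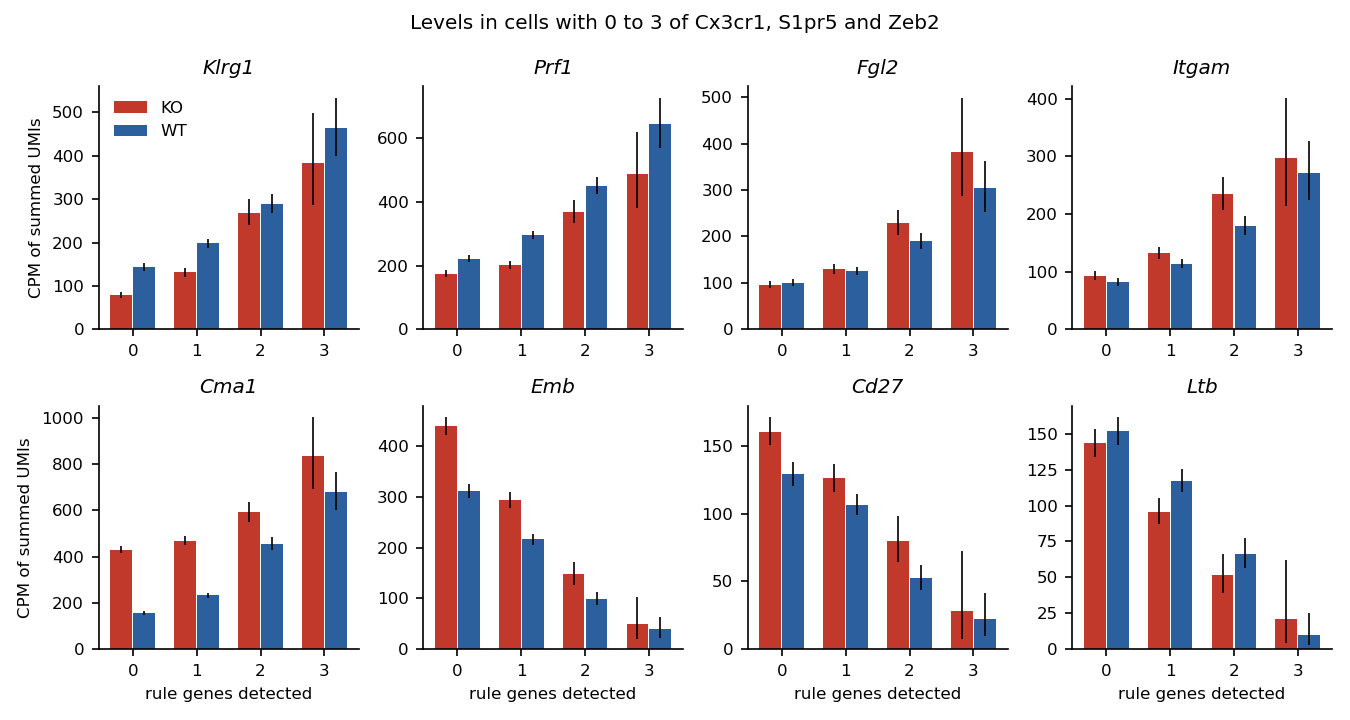
CPM of summed UMIs (y axis, linear, from 0) of 8 genes outside the selection in cells with 0 to 3 of the rule genes Cx3cr1, S1pr5 and Zeb2 detected (x axis), KO in red and WT in blue, with exact Poisson 95% intervals. Klrg1, Prf1, Fgl2, Itgam and Cma1 climb and Emb, Cd27 and Ltb descend over the 4 classes in both libraries, Emb to 49.6 CPM in KO and 38.8 CPM in WT cells with all 3 genes.

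Genes were then counted per cell at equal depth. At 2500 UMIs, 25.9% (20.9% to 31.4%) of KO mature cells had at least 3 of Klrg1, Prf1, Fgl2 and Itgam, against 7.27% (6.25% to 8.39%) of the other KO cells. In the WT library the shares were 30.1% (26.2% to 34.2%) and 9.51% (8.47% to 10.6%). All 4 genes were among the 12 highest of mature over other cells in these same data. Their shares are thus a description and no separate support. Granzyme A was near universal, with a median of 42 Gzma UMIs in KO mature cells and 28 in the other KO cells, and 45 in WT mature cells and 24 in the other WT cells. Ccl5, encoding the chemokine RANTES, had a median of 77 UMIs in KO mature cells and 49 in the other KO cells, and of 102 UMIs in WT mature cells and 61 in the other WT cells. Single cells were not separated by any 1 gene, since 14.2% of KO and 13.4% of WT mature cells had none of the 4 genes at that depth.

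Across 5872 genes with at least 200 UMIs in each library, 62 (1.06%) were higher by 1.5-fold or more and 92 (1.57%) lower by as much in mature cells than in the other kept cells of the same library, in both libraries, the selecting genes left out. Ratios are log2 with 1 CPM added to both sums. Gpx8, encoding a glutathione peroxidase of the endoplasmic reticulum, led the higher side, ranked by the smaller of a gene's library ratios, with 61.4 CPM in KO mature cells against 16.3 CPM in the other KO cells, and 99.2 CPM in WT mature cells against 27.6 CPM in the other WT cells. Its log2 ratio was 1.85 in the KO library (1.52 to 2.30) and 1.81 in the WT library (1.63 to 2.06). Timp2, encoding a metalloproteinase inhibitor, had 74.4 CPM in KO mature cells against 25.3 CPM in the other KO cells, and 62.7 CPM in WT mature cells against 23.7 CPM in the other WT cells. Mature cells were above the other cells for both genes in each library.

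Next came the chemokine gene Ccl9, with log2 ratios of 1.53 (KO) and 1.26 (WT), the chemerin receptor gene Cmklr1 with 1.44 (KO) and 1.15 (WT), and the small GTPase gene Rac3 with 1.14 (KO) and 1.14 (WT). Ccl9 rested on few cells, since 10 mature cells held 67.7% of its KO and 45.0% of its WT UMIs. Itgam had 242 CPM in KO mature cells against 101 CPM in the other KO cells, and 193 CPM in WT mature cells against 89.1 CPM in the other WT cells. Serpinb9b, a relative of the granzyme B inhibitor Serpinb9, had log2 ratios of 1.04 (KO) and 1.02 (WT), the potassium channel gene Kcnj8 had 1.52 (KO) and 1.06 (WT), and the insulin-like gene Insl6 had 1.08 (KO) and 1.44 (WT). Prf1 (chromosome 10, 61297833 to 61304680, plus strand) had 382 CPM in KO mature cells against 174 CPM in the other KO cells, and 478 CPM in WT mature cells against 242 CPM in the other WT cells. Klrg1 (chromosome 6, 122270596 to 122282882, minus strand) had 281 CPM in KO mature cells against 95.3 CPM in the other KO cells, and 314 CPM in WT mature cells against 163 CPM in the other WT cells, and its log2 ratio of 1.55 in the KO library (1.38 to 1.73) and 0.94 in the WT library (0.83 to 1.05) was larger in the KO library, whose other cells had less Klrg1. Fgl2 closed the 12 highest with 1.17 (KO) and 0.90 (WT).

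**Figure D2:**
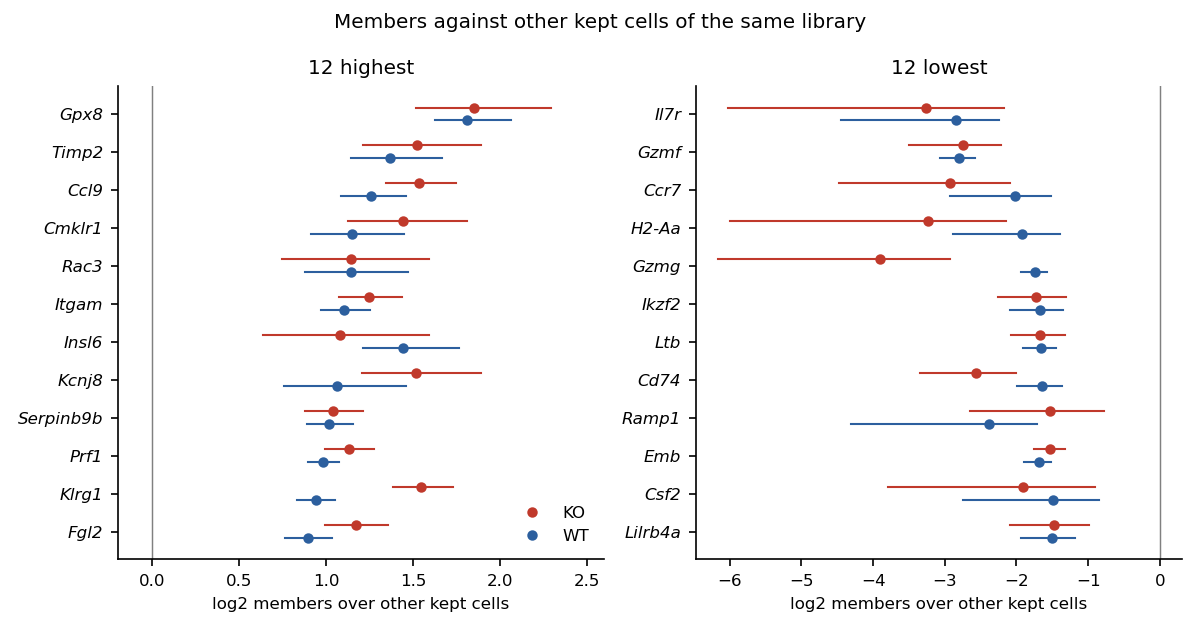
Log2 ratio of mature cells over the other kept cells of the same library (x axis, points with exact 95% counting intervals, computed without the added CPM) for the 12 highest and 12 lowest genes, KO in red and WT in blue. All 24 genes lie on the same side of 0 in both libraries, from Gpx8 at 1.85 (KO) and 1.81 (WT) to Il7r at -3.26 (KO) and -2.84 (WT).

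The lower side was led by Il7r, encoding the interleukin-7 receptor, which had 3 UMIs in KO and 8 in WT mature cells, that is, 2.30 CPM in KO mature cells against 30.6 CPM in the other KO cells, and 2.80 CPM in WT mature cells against 26.3 CPM in the other WT cells. Its log2 ratio was -3.26 in the KO library (-6.02 to -2.18) and -2.84 in the WT library (-4.45 to -2.24). Ccr7, the lymph-node homing receptor gene, had log2 ratios of -2.93 (KO) and -2.02 (WT). Among lineage and effector genes, Ikzf2, encoding Helios, had -1.73 (KO) and -1.67 (WT), the lymphotoxin gene Ltb had -1.67 (KO) and -1.65 (WT), and Csf2, encoding GM-CSF, had -1.91 (KO) and -1.50 (WT) from 5 UMIs in KO and 11 in WT mature cells. Emb (chromosome 13, 117208536 to 117274415, plus strand) had 137 CPM in KO mature cells against 396 CPM in the other KO cells, and 89.7 CPM in WT mature cells against 292 CPM in the other WT cells. Its log2 ratio was -1.53 in the KO library (-1.76 to -1.32) and -1.69 in the WT library (-1.89 to -1.52), and of the 12 lowest genes it had the most UMIs in KO mature cells. Ramp1, a component of the CGRP receptor, had -1.53 (KO) and -2.38 (WT), and Lilrb4a, encoding an inhibitory receptor, had -1.48 (KO) and -1.51 (WT).

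Some ratios of the lower side were smaller against cells under the same exclusions. The MHC class II gene H2-Aa, with 3 UMIs in KO and 17 in WT mature cells, had log2 ratios of -3.24 in the KO library (-5.99 to -2.15) and -1.92 in the WT library (-2.88 to -1.39) against all other cells, and Cd74, encoding the invariant chain, -2.56 (KO) and -1.64 (WT). Against the 2512 KO and 2640 WT other cells that also passed the Cd3 and Tmem176 conditions, H2-Aa had -2.88 (KO) and -1.02 (WT), Cd74 -2.08 (KO) and -0.75 (WT) and Il7r -2.24 (KO) and -1.70 (WT), while Emb had -1.45 (KO) and -1.53 (WT) and Gpx8 1.74 (KO) and 1.72 (WT). Over the same 5872 genes that comparison gave 43 higher and 74 lower genes, of which 41 and 71 were among the 62 and 92. The genes Gzmf and Gzmg, granzyme genes of the Gzmc to Gzmg block, were also among the 12 lowest, with log2 ratios of -2.75 (KO) and -2.80 (WT) for Gzmf and -3.90 (KO) and -1.74 (WT) for Gzmg. Gzmf had -2.91 (KO) and -2.65 (WT) against the cells passing the conditions, and its ratios were -1.19 (KO) and -0.42 (WT) once cells with at least 2 S and G2M genes were left out.

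Promoter sequence was examined because ZEB2 and T-bet, both tied to late NK maturation, have known binding letters. ZEB proteins bind the E-box CAGGTG and T-box factors a core of AGGTGT, and the letters overlap where CAGGTGT occurs. Both strands of 300 bases, from 250 before to 50 after each RefSeq start on GRCm38.p6, were searched. CAGGTG was present for 21 of 65 (32.3%) genes lower in mature cells with a promoter in the table, 12 of 48 (25%) genes higher, and 848 of 4427 (19.2%) other measured genes, and in 20.2% of all 32851 promoters. AGGTGT was present for 12 of 65 (18.5%), 6 of 48 (12.5%) and 516 of 4427 (11.7%), and in 13.7% of all promoters. Neither was found in the windows of Cx3cr1, S1pr5 or Zeb2, of Zeb2 in any of 4 windows.

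Among the 12 lowest genes with an entry, CAGGTG was found for 4 of 8, namely Ltb, Ramp1, Emb and Csf2, and among the 12 highest for 2 of 10, Prf1 and Timp2. The promoters of Emb, at chr13:117220323-117220622 (plus strand), Ltb, at chr17:35194257-35194556 (plus strand), and Prf1, at chr10:61297586-61297885 (plus strand), are shown as examples that hold the letters in genes whose levels varied step by step with the selecting genes, with CAGGTG or its reverse complement in capitals.
Emb: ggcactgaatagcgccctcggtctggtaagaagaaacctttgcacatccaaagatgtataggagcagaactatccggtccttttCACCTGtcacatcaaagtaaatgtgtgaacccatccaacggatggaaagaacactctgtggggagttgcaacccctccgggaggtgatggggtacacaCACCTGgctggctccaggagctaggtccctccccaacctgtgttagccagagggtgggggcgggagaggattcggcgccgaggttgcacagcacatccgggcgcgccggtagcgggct
Ltb: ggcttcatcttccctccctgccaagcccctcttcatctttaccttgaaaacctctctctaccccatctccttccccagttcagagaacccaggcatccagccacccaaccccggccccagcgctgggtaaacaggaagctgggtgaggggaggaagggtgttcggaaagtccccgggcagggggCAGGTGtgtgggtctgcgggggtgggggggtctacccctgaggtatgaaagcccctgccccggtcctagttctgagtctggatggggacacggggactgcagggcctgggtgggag
Prf1: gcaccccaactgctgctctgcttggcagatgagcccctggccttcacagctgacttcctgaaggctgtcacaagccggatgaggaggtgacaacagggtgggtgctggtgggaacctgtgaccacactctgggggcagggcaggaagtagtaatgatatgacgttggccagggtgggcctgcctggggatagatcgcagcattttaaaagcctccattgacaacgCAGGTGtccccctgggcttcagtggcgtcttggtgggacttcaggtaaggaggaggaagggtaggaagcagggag
Emb had 2 such matches and Ltb and Prf1 1 each, and Prf1 thus carried the letters although it was higher in the mature cells. Fgl2 and Itgam, which climbed step by step as Prf1 did, had 0 matches. These matches are descriptions of the letters and do not show binding.

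Gene lists, written with earlier results of these data known, put numbers on these groups. Of 15 late maturation genes, 10 were at least 1.5-fold higher and 0 lower in mature cells, against 1.06% higher over all genes, with a median log2 ratio of 0.91 (KO) and 0.71 (WT). Ly6c2, encoding the surface protein Ly6C, had 599 CPM in KO mature cells against 167 CPM in the other KO cells, and 239 CPM in WT mature cells against 132 CPM in the other WT cells. Tbx21 had 208 CPM in KO mature cells against 105 CPM in the other KO cells, and 112 CPM in WT mature cells against 69.4 CPM in the other WT cells, Prdm1, encoding Blimp-1, had log2 ratios of 0.78 (KO) and 0.71 (WT), and the galectin gene Lgals1 had 0.89 (KO) and 0.63 (WT). Spn, encoding CD43, had 0.96 (KO) and 0.60 (WT), and the mast cell protease gene Cma1 had 0.60 (KO) and 1.45 (WT). Spn and Cma1 were picked out with their values in view. Gzma, Gzmb, S100a6 and S100a4 (the last one also picked out) missed 1.5-fold in at least 1 library, and so did Anxa2, at 0.19 (KO) and 0.10 (WT). Against cells passing the exclusion conditions the list count was 8 of 15, since Spn (0.93 (KO) and 0.53 (WT)) and Cma1 (0.47 (KO) and 1.31 (WT)) then missed 1.5-fold.

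Of 15 early-stage genes, 0 were higher and 10 were lower, against 1.57% lower over all genes, with a median of -0.75 (KO) and -1.17 (WT). Against the cells passing the exclusion conditions 9 of the 15 were lower. Tcf7, encoding the transcription factor TCF-1, had log2 ratios of -1.19 (KO) and -1.45 (WT), Cd27 had -0.97 (KO) and -1.33 (WT), the chemokine gene Xcl1 had -0.66 (KO) and -1.18 (WT), or -0.58 (KO) and -0.90 (WT) against the cells passing the exclusion conditions, and the chemokine receptor gene Ccr2 had -0.70 (KO) and -0.67 (WT). Kit, Cd7 and Ctla2a were lower too, Cd7 at -0.75 (KO) and -0.87 (WT). They were named with their values in view. Thy1 stayed under 1.5-fold, at -0.29 (KO) and -0.21 (WT). Of 19 homing and adhesion genes, 4 were higher and 3 lower, against 1.06% and 1.57% over all genes. Cxcr4, a receptor that holds NK cells in bone marrow, had 68.3 CPM in KO mature cells against 157 CPM in the other KO cells, and 41.3 CPM in WT mature cells against 65.1 CPM in the other WT cells, whereas Klf2, which promotes expression of egress receptors in lymphocytes and was singled out afterwards, had log2 ratios of 0.79 (KO) and 0.61 (WT), and 0.72 (KO) and 0.54 (WT) against the cells passing the exclusion conditions.

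Over all genes 1.06% were higher and 1.57% lower. Of 10 NK identity genes 1 was higher, Ncr1, with 835 CPM in KO mature cells against 422 CPM in the other KO cells, and 631 CPM in WT mature cells against 393 CPM in the other WT cells, and Eomes had -0.063 (KO) and -0.19 (WT). Of 17 measured cytotoxic granule genes only Prf1 was 1.5-fold higher, although the median was 0.44 (KO) and 0.26 (WT). Gzmb had 0.76 (KO) and 0.57 (WT) and Nkg7, a granule membrane gene, 0.70 (KO) and 0.54 (WT). Chemokine genes Ccl5 and Ccl4 were the 2 of 8 cytokine genes that were higher, at 0.68 (KO) and 0.80 (WT) for Ccl5 and 0.60 (KO) and 0.66 (WT) for Ccl4, and Xcl1, Ltb and Csf2 were the 3 lower. Ccl4 missed 1.5-fold against the cells passing the exclusion conditions, at 0.50 (KO) and 0.52 (WT). Xcl1 missed it too, in the KO library, so in that comparison 1 of the 8 cytokine genes was higher and 2 were lower. Among inhibitory receptors Ctla4 had -1.45 (KO) and -1.21 (WT), and the Ly49 gene Klra9, whose reads may be shared with its close relatives, had 0.64 (KO) and 0.60 (WT), and missed 1.5-fold against the cells passing the exclusion conditions, at 0.53 (KO) and 0.45 (WT). Of 9 S and G2M genes none was 1.5-fold apart in both libraries, with medians of -0.10 (KO) and -0.17 (WT), and of 15 housekeeping genes none was, with medians of 0.014 (KO) and -0.0026 (WT). At full depth, 36.4% of KO and 46.3% of WT mature cells had at least 2 of 26 S and G2M genes. In the other kept cells the shares were 37.0% (KO) and 48.2% (WT). The low proliferation known for the latest stage was thus not seen in these shares.

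Hif1a itself (chromosome 12, 73901375 to 73947530, plus strand) was lower in the mature cells of both libraries. It had 39.9 CPM in KO mature cells against 62.8 CPM in the other KO cells, and 39.6 CPM in WT mature cells against 61.4 CPM in the other WT cells, and log2 ratios of -0.64 in the KO library (-1.09 to -0.25) and -0.62 in the WT library (-0.93 to -0.35). Reads near the 3′ end may come from exons that remain after the deletion, so this level is no check of the genotype. Vegfa, the angiogenic factor gene, had 199 CPM in KO mature cells against 303 CPM in the other KO cells, and 24.2 CPM in WT mature cells against 67.8 CPM in the other WT cells. Ndrg1, another hypoxia-responsive gene, had log2 ratios of -0.88 (KO) and -0.98 (WT). Vegfa and Ndrg1 were the 2 of 10 measured non-glycolytic HIF targets that were lower (1.57% of all genes were), 0 were higher, and 0 of 14 glycolysis genes passed 1.5-fold in both libraries, although Gapdh stood at -0.61 (KO) and -0.35 (WT).

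**Figure D3:**
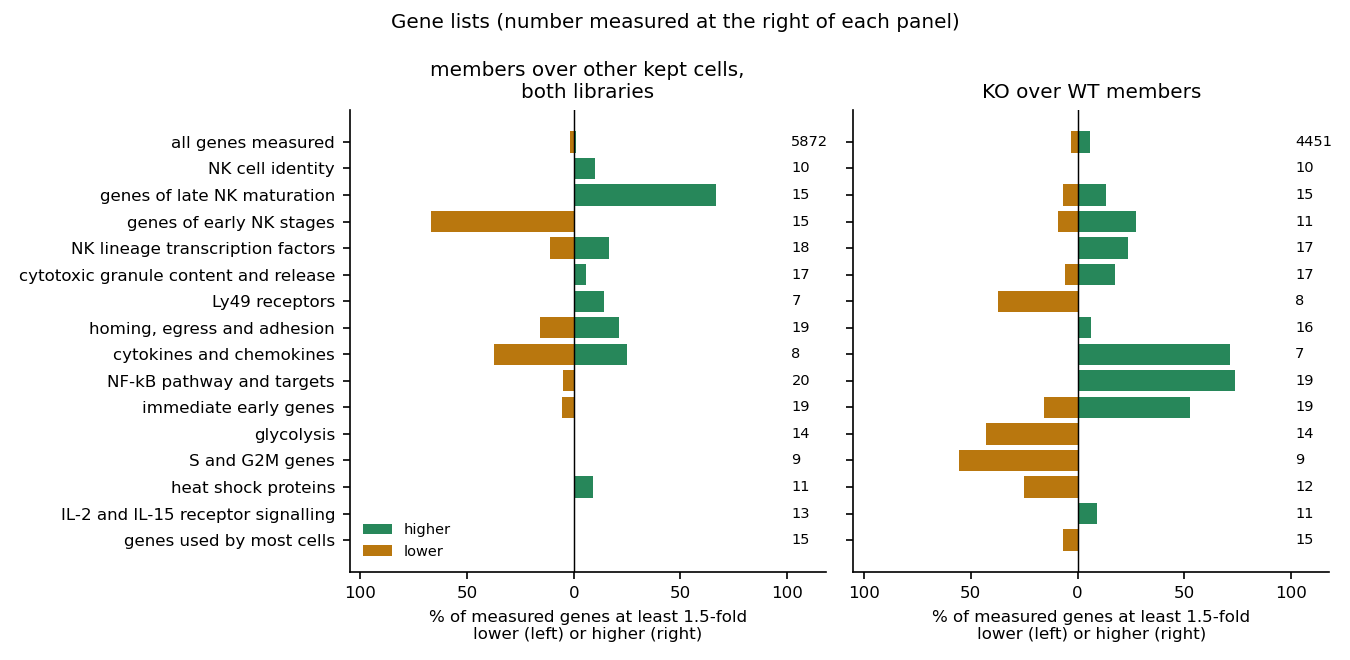
Percent of the measured genes of each list (x axis) that were at least 1.5-fold higher (green, right) or lower (orange, left), for mature cells over the other kept cells in both libraries (left panel) and for KO over WT mature cells (right panel), with the number measured at the right edge. Late maturation genes (10 of 15 higher) and early-stage genes (10 of 15 lower) stand out on the left, and NF-kB genes (14 of 19 higher) and S and G2M genes (5 of 9 lower) on the right.

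The mature cells were not uniform. Those with a Cd27 UMI (65 KO and 95 WT cells) had less of the late genes than those without (240 KO and 443 WT). Fgl2 stood at 157 against 274 CPM in KO cells with and without Cd27, and 122 against 228 CPM in WT cells. The log2 ratio was -0.57 in KO and -0.80 in WT mature cells for Klrg1, -0.64 in KO and -0.88 in WT mature cells for Itgam and -1.08 in KO and -1.12 in WT mature cells for Cx3cr1. Emb went the other way, at 1.1 in KO and 1.42 in WT mature cells, and so did Ltb, at 1.47 in KO and 2.08 in WT mature cells. Cells with a Cd27 UMI were deeper, with a median of 4197 against 3810.5 UMIs in KO and 5209 against 4485 in WT cells. The part of depth in these ratios was not tested.

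Mature cells with a Klrg1 UMI (152 KO and 329 WT) had more S100a6, a calcium-binding protein gene singled out afterwards, by a log2 ratio of 0.95 in KO and 1.12 in WT mature cells, more Lgals1, by 0.73 in KO and 0.72 in WT mature cells, and less Cd27 and Emb. Prf1 differed by 0.25 in KO and 0.64 in WT mature cells, and the KO interval included 0 (-0.0066 to 0.52). S1pr5 was near equal, at 0.018 in KO and -0.18 in WT mature cells. The 85 KO and 171 WT mature cells with a Cx3cr1 UMI had more Prf1, 502 against 334 CPM for KO and 579 against 424 CPM for WT cells, and more Klrg1, 343 against 256 CPM for KO and 403 against 267 CPM for WT cells. Their Cd27 was lower, 35.1 against 90.0 CPM for KO and 30.1 against 57.6 CPM for WT cells. Their S1pr5 was lower by construction, since cells without Cx3cr1 had to carry S1pr5 and Zeb2.

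**Figure D4:**
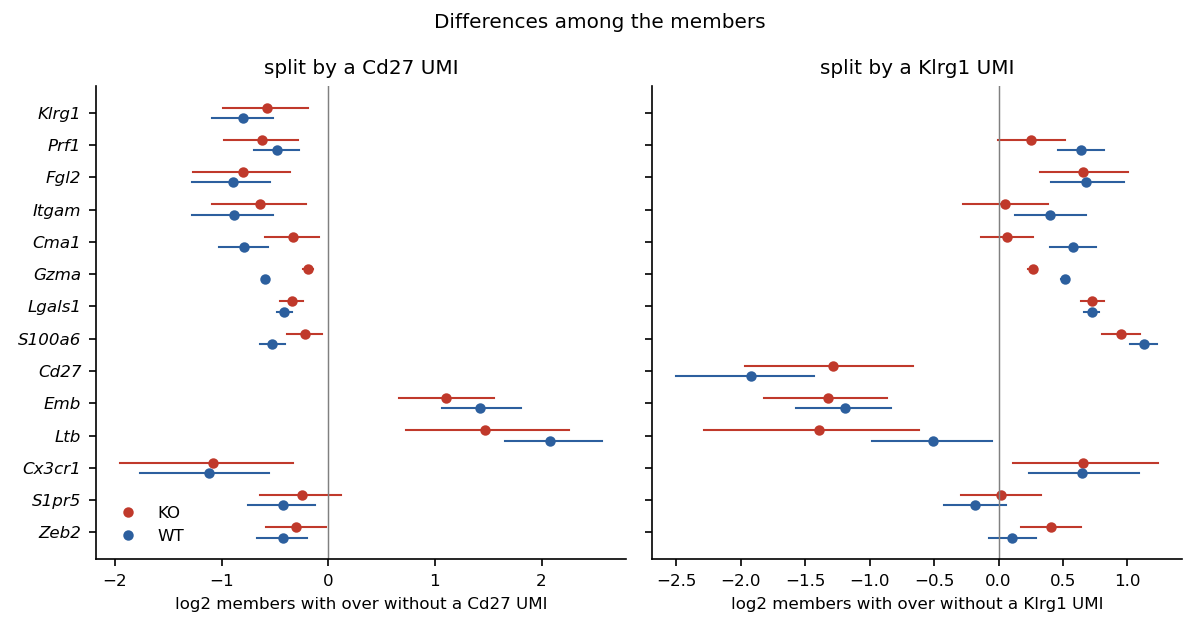
Log2 ratio of mature cells with over without a Cd27 UMI (left) and with over without a Klrg1 UMI (right) on the x axis, with exact 95% counting intervals, for 14 genes, KO in red and WT in blue. Emb and Ltb lie to the right of 0 in the Cd27 split, at 1.1 in KO and 1.42 in WT mature cells for Emb, and to the left of it in the Klrg1 split.

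Cells with Klrg1 but none of the selecting genes (296 KO and 405 WT, under the same exclusions) were taken as a comparison class. They were chosen on Klrg1, so Klrg1 is not compared. Mature cells had more Prf1, 382 against 269 CPM for KO and 478 against 293 CPM for WT cells. Itgam stood at 242 against 122 CPM in KO and 193 against 103 CPM in WT cells, and Timp2 at 74.4 against 24.0 CPM for KO and 62.7 against 22.3 CPM for WT cells. Emb was lower in mature cells, 137 against 229 CPM for KO and 89.7 against 167 CPM for WT cells. Gzmb in the Klrg1 class was nearer, at 3576 CPM for KO and 3635 CPM for WT cells. Mature cells with 2 selecting genes had 4054 CPM (KO) and 3738 CPM (WT) of it, and those with 3 had 6427 CPM (KO) and 4678 CPM (WT). Gzma in the class stood at 16568 CPM (KO) and 14192 CPM (WT). Mature cells with 2 selecting genes had 17986 CPM (KO) and 17971 CPM (WT), and those with 3 had 20372 CPM (KO) and 23219 CPM (WT). In cells with Cd27 and neither Klrg1 nor a selecting gene (464 KO and 389 WT), Emb reached 654 CPM for KO and 487 CPM for WT cells, and Prf1 was 112 CPM for KO and 130.0 CPM for WT cells.

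The KO and WT mature cells, chosen by the same rule at unequal depth, were then compared. Whether they were at the same stage of maturation was not tested. With 1 library per genotype, loss of Hif1a cannot be told apart from other differences between the libraries. Over 4451 genes with at least 100 UMIs in the mature cells of both libraries together, 268 (6.02%) were higher by 1.5-fold or more and 134 (3.01%) lower by as much in KO cells, with a median log2 ratio of 0.037 over all of them. The maturation genes were mostly close. Hif1a had 52 UMIs in KO and 113 in WT mature cells, 39.9 CPM in KO and 39.6 CPM in WT mature cells, a log2 ratio of 0.01 (-0.49 to 0.50). The log2 ratio was -0.16 (-0.34 to 0.014) for Klrg1, -0.32 (-0.48 to -0.18) for Prf1 and 0.25 (0.054 to 0.45) for Fgl2, and 0.32 for Itgam. S1pr5, Zeb2 and Cx3cr1, which set the selection in both libraries, had 0.29, 0.31 and 0.072. Of 15 late maturation genes 2 were higher and 1 lower.

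Those exceptions were Ly6c2, with 599 CPM in KO and 239 CPM in WT mature cells, Tbx21, with 208 CPM in KO and 112 CPM in WT mature cells, and Anxa2, an annexin gene, with 454 CPM in KO and 928 CPM in WT mature cells. In the other kept cells the Ly6c2 log2 ratio was 0.34, against 1.32 in mature cells, and Klrg1, at -0.16 in mature cells, had -0.77 in the other cells. Of 17 NK transcription factor genes 4 were higher in KO mature cells and 0 lower, against 6.02% and 3.01% over all genes, namely Tbx21, Runx3 (0.69), Nfil3 (0.68) and Bach2 (0.61). The median log2 ratio of the 17 was 0.331 in mature and 0.333 in other cells. Early-stage genes were 3 higher and 1 lower of 11, with Xcl1 at 515 CPM in KO and 306 CPM in WT mature cells, Cd27 at 74.4 CPM in KO and 48.0 CPM in WT mature cells, Emb at 137 CPM in KO and 89.7 CPM in WT mature cells and, on the lower side, Thy1 at 133 CPM in KO and 204 CPM in WT mature cells. Gpx8 was the only one of the 3 leading genes of the mature cells to be lower in KO, at 61.4 CPM in KO and 99.2 CPM in WT mature cells, while Timp2 had a log2 ratio of 0.24. Ccl9 had 0.78, with 67.7% of its KO UMIs in 10 cells, and its direction turned, to -0.95, when all 3 selecting genes were required.

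The 10 highest KO over WT ratios included several genes induced by cell signaling. Vegfa (chromosome 17, 46016993 to 46032369, minus strand) stood at 199 CPM in KO and 24.2 CPM in WT mature cells, a log2 ratio of 2.99 (2.65 to 3.44), against 2.14 (2.06 to 2.26) in the other cells. It was found in 86 of 305 KO and 51 of 538 WT mature cells. The orphan nuclear receptor gene Nr4a1 (chromosome 15, 101254269 to 101274795, plus strand) stood at 1025 CPM in KO and 183 CPM in WT mature cells, with a log2 ratio of 2.48 (2.34 to 2.63), and had UMIs in 224 KO and 214 WT mature cells. Nfkbid, encoding a nuclear IκB protein, stood at 231 CPM in KO and 49.1 CPM in WT mature cells, Nfkbiz, another of that family, at 383 CPM in KO and 92.9 CPM in WT mature cells, and the stress-response gene Gadd45b at 707 CPM in KO and 163 CPM in WT mature cells. For Csrnp1, Nfkbid, Maff, Gadd45b and Nfkbiz the ratio in the other cells lay inside the interval of the mature cells, so for these genes the mature and the other cells had ratios of like size.

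Of 19 NF-kB genes, 14 were higher in KO mature cells and 0 lower, against 6.02% and 3.01% over all genes, with a median log2 ratio of 0.87 in mature and 0.82 in other cells. Icam1, an adhesion gene, had 410.4 CPM in KO and 122.99 CPM in WT mature cells, Birc3, an apoptosis inhibitor gene, 97.4 CPM in KO and 35.4 CPM in WT mature cells, and Tnfrsf9, encoding 4-1BB, did not differ beyond its interval, at -0.11 (-0.28 to 0.045). Of 19 immediate early genes 10 were higher and 3 lower, with a median log2 ratio of 0.87 in mature and 0.89 in other cells. Fosl2 had 289 CPM in KO and 99.2 CPM in WT mature cells and Nr4a3 78.2 CPM in KO and 25.2 CPM in WT mature cells, while Fos was lower, at 457 CPM in KO and 894 CPM in WT mature cells, and Jun had a log2 ratio of -0.33. Rrad, a Ras-related GTPase gene, had 127 CPM in KO and 36.4 CPM in WT mature cells, of which 10 cells held 53.6% in KO and 37.5% in WT, and Hspb7, a small heat shock protein gene, 65.2 CPM in KO and 18.9 CPM in WT mature cells.

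**Figure D5:**
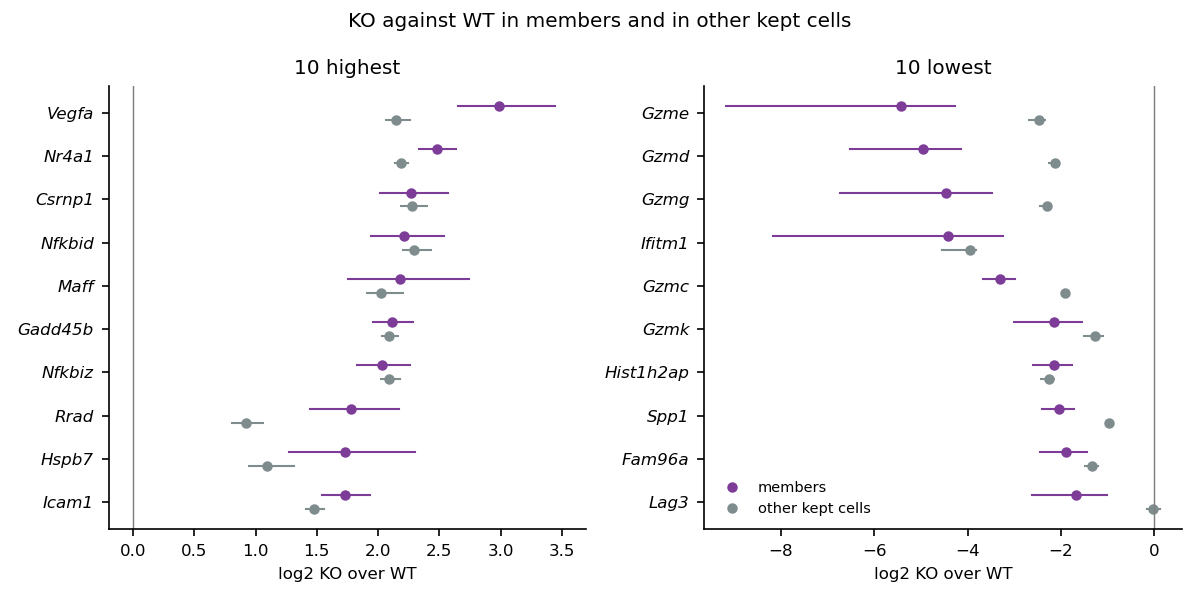
Log2 ratio of KO over WT (x axis) in mature cells (purple) and in the other kept cells (grey), with exact 95% counting intervals computed without the added CPM, for the 10 highest and 10 lowest ratios in mature cells. Vegfa leads at 2.99 in mature and 2.14 in other cells, and on the lower side Lag3 has -1.69 in mature and -0.019 in other cells.

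Of 7 cytokine genes 5 were higher in KO mature cells and 0 lower, against 6.02% and 3.01% over all genes. Their median log2 ratio was 0.75 in mature and 0.54 in other cells. Ccl4 had 5367 CPM in KO and 2329 CPM in WT mature cells, Ifng, encoding interferon gamma, 783 CPM in KO and 393 CPM in WT mature cells, and Ccl3 2658 CPM in KO and 1567 CPM in WT mature cells, with Xcl1 and Tgfb1 (0.62) as the others. Ccl5 did not pass 1.5-fold, at a log2 ratio of -0.37. At 2500 UMIs the median KO mature cell had 3 Ccl4 UMIs and the median WT mature cell 2, while the upper quartiles were 15 UMIs in KO and 7 in WT mature cells. Granule genes went both ways, with Serpinb9 at 941 CPM in KO and 513 CPM in WT mature cells and Stx11, needed for granule fusion, at 81.3 CPM in KO and 43.1 CPM in WT mature cells, while Gzma and Gzmb had log2 ratios of -0.038 and 0.15. Pim1, a kinase gene induced by IL-2 and IL-15, was the 1 of 11 genes of that pathway to pass, at 1781 CPM in KO and 778 CPM in WT mature cells.

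All 5 granzyme genes C to G were lower in KO mature cells, against 3.01% over all genes, and Gzme, Gzmd, Gzmg and Gzmc were among the 10 lowest ratios, while Gzmf had -1.54. Their median log2 ratio was -4.47 in mature and -2.14 in other cells, so low KO levels were not particular to mature cells. In the other cells Gzmf had -1.58 and Gzmg -2.31, against -4.47 for Gzmg in mature cells. Gzmc (chromosome 14, 56231441 to 56234656, minus strand) had 76 UMIs in KO and 1669 in WT mature cells, a log2 ratio of -3.30 (-3.68 to -2.99), and Gzme had 2 UMIs in KO and 307 in WT mature cells, with -5.42 (-9.18 to -4.27). In WT mature cells 10 cells held 82.4% of the Gzmc, 84.3% of the Gzmd and 87.9% of the Gzme UMIs. The mean of each cell's CPM gave log2 ratios of -1.85 for Gzmc, -3.52 for Gzmd and -3.58 for Gzme. Without cells carrying at least 2 S and G2M genes the Gzmc ratio was -1.02. These genes resemble each other in sequence, and the counting could split reads between them. Gzmk had 19 KO and 196 WT UMIs, and Spp1, encoding osteopontin, had 61.4 CPM in KO and 257 CPM in WT mature cells, with 67.9% of the WT UMIs in 10 cells.

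Lag3, an inhibitory receptor gene, had 16 UMIs in KO and 119 in WT mature cells, a log2 ratio of -1.69 (-2.62 to -1.01), whereas in the other kept cells it was -0.019 (-0.17 to 0.13). Fam96a, an iron-sulfur cluster assembly gene, had UMIs in 37 KO and 226 WT mature cells, at 29.1 CPM in KO and 111 CPM in WT mature cells. Ifitm1, an interferon-induced gene, had 2 KO and 152 WT UMIs, and Hist1h2ap, a histone gene, had 42.2 CPM in KO and 189.9 CPM in WT mature cells, with 70.9% of KO and 80.1% of WT UMIs in 10 cells. The Lag3 UMIs lay in 12 KO and 69 WT mature cells.

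Over all genes 3.01% were lower and 6.02% higher in KO mature cells. Glycolysis genes were 6 of 14 lower and 0 higher, with a median of -0.56, near the -0.53 of the other cells. Gapdh had 339.8 CPM in KO and 736 CPM in WT mature cells, Tpi1, encoding triosephosphate isomerase, 132 CPM in KO and 247 CPM in WT mature cells, and Aldoa, encoding aldolase, 323 CPM in KO and 546 CPM in WT mature cells. Pgk1 had 64.4 CPM in KO and 104 CPM in WT mature cells, and Ldha, encoding lactate dehydrogenase, missed 1.5-fold at -0.57. Gapdh has many pseudogenes that may share its reads. Of 9 S and G2M genes 5 were lower, among them Rrm2 at -1.29 and Top2a at -1.18, with a median of -0.91 in mature and -0.55 in other cells. Ly49 genes were 3 of 8 lower, namely Klra1 (-0.74), Klra5 and Klra6, and Klra9 and Klra8 were level at -0.014 and -0.046. The Ly49 median was -0.24 in mature and -0.18 in other cells. Of 12 heat shock genes 3 were lower, with Hspa1a at 851 CPM in KO and 1343 CPM in WT mature cells, whose log2 ratio of -0.66 turned sign, at 0.10, when all 3 selecting genes were required, and 15 housekeeping genes held 0 higher and 1 lower.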

How the data were processed

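The authors deposited raw UMI counts per gene and barcode, 1 table per library, whole numbers and not normalized (from the values). The submitters' processing notes list mm10, Seurat and Cell Ranger 2.0.2 and say nothing of their use. The sources used here do not state the annotation or any doublet step. From the deposited counts, cells were filtered and chosen as the report states, UMIs were summed over cells, scaled to CPM and compared as log2 ratios with 1 CPM added (Python 3.11.15, numpy 2.4.6, scipy 1.17.1). Depth ran from 1464 to 29202 UMIs per kept KO cell and from 2364 to 52557 per kept WT cell. Intervals are exact Poisson, conditional binomial and Clopper-Pearson intervals at 95%. The conditional binomial intervals were run on simulated Poisson counts. Those counts follow the error that the intervals assume and leave out the clustering of UMIs in cells, so coverage in the real data was not tested. Thinning drew 2500 UMIs per cell without replacement. Named genes were Hif1a, the selecting genes, Klrg1, Prf1 and Fgl2, the 12 highest and 12 lowest against other cells, the 10 highest and 10 lowest KO over WT, and up to 4 of each list per comparison, sex-linked, mitochondrial, ribosomal, hemoglobin, antigen receptor and unnamed genes left out of the rankings, 170 genes in all. Others are said to be singled out. The members, lists, rules and alternatives were chosen with earlier results of these data known. Positions are from GENCODE M21 and promoters from RefSeq.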

Additional observations from a re-analysis of the deposited data

Results flagged for a closer look

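Gene ratios on opposite sides of 0 in paired comparisons are listed here, and none of these differences was tested, since each genotype was 1 library. Gzma had a KO over WT log2 ratio of -0.038 in mature cells and 0.20 in the other kept cells. Gzmb had 0.15 in mature cells and -0.032 in the other kept cells. Rrad had a log2 ratio of mature over other cells of 0.32 in the KO library and -0.54 in the WT library.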

How the results depend on the processing

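No paired analysis was possible because each genotype had 1 library and no test was made. Counts are given as higher and lower genes in mature over other cells, then in KO over WT mature cells. Requiring all 3 selecting genes gave shares of 1.08% (KO) and 1.997% (WT), 161 and 376 genes, then 63 and 38 of 708. It turned 3 gene values round, namely KO over WT log2 ratios of Ccl9 (-0.95, against 0.78) and Hspa1a (0.10, against -0.66), and the KO ratio of mature over other cells of Rora (0.092, against -0.78). Thinning before the rule gave shares of 6.08% (KO) and 7.68% (WT), 99 higher genes, then 140 and 65 of 2381. Without cells having 2 or more S and G2M genes there were 37 and 59 of 3994, then 144 and 63 of 2599. No minimum of UMIs gave 169 and 260 of 11365, then 1409 and 1018 of 11415, and a minimum 5 times higher gave 27 and 34 of 1749, then 68 and 24 of 1088. Against other cells passing the exclusions 60 of 5531 were lower, and thinning the mature cells gave 160 and 59 of 2624. Several of these settings measured fewer or more genes; other causes were not tested. All barcodes, stricter cell filters, no myeloid UMIs, the 3% of cells with most UMIs left out, 5 CPM added, median-of-ratios scaling and the mean of each cell's CPM kept all 4 counts within 1.5 times. Of 2020 gene values over 14 settings, 1715 moved by less than the interval, 302 moved more and 3 changed sign. The 1715 include 177 values without a minimum of UMIs and 86 with the higher minimum. Those 2 settings change only which genes are measured, so these values could not move. Depth and 1 library per genotype limit all comparisons, and genes under the minimum were not read.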

Other observations

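Several lists not described above had few genes past 1.5-fold, against 1.06% higher and 1.57% lower over all genes for mature over other cells, and 6.02% higher and 3.01% lower for KO over WT mature cells. Of 9 measured interferon-response genes, Ly6a, encoding Sca-1, was lower in mature cells, at log2 ratios of -2.15 (KO) and -1.21 (WT), and in KO over WT mature cells Isg15 had 1.19 and Ifitm1, with 2 UMIs in KO mature cells, -4.42 (-8.18 to -3.24). Of 14 activating receptor genes Crtam was lower in mature cells, at -1.81 (KO) and -0.75 (WT), besides the higher Ncr1. Cd83, an activation marker gene, was the 1 of 20 NF-kB genes lower in mature cells, at -1.44 (KO) and -1.33 (WT). Of 16 mTORC1 and MYC target genes Odc1, encoding ornithine decarboxylase, was lower, at -1.22 (KO) and -0.76 (WT), but not against the cells passing the Cd3 and Tmem176 conditions, at -0.98 (KO) and -0.41 (WT). Of 5 measured genes of resident innate lymphoid cells Rora was lower, at -0.78 (KO) and -1.15 (WT), but not against those cells, at -0.48 (KO) and -0.43 (WT), and its KO ratio turned, to 0.092, when all 3 selecting genes were required. Of 8 TGF-beta pathway genes 3 were higher in KO than WT mature cells, led by Tgif1 at 1.70, and Rgs16 was lower at -0.63. The only heat shock gene of 11 to be higher in mature cells was Hspa1b, at 1.12 (KO) and 0.64 (WT). Hspa1a, at 1.40 (KO) and 0.58 (WT), fell just short of 1.5-fold in the WT library. Against the cells passing the Cd3 and Tmem176 conditions 2 of the 11 were higher.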
